A study of Mus musculus with 12 samples.

Results

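The comparison described here is T cells at 48 h against T cells at 24 h of co-culture with the control partner, the baseline course of T cell activation in this study. It rests on 6 of the 12 libraries of the series, chosen by their labelled partner and time, with 3 libraries at each time. All groups were mouse spleen T cells kept with Res cells, a partner cell that the labels do not describe further, in RPMI-1640 medium with 10% heat-inactivated fetal bovine serum and penicillin and streptomycin at 37 °C and 5% CO2. In the 6 libraries the partner carried the control construct (Res_ctrl), and in the other 6, used here only to ask where the course differed, it carried a short hairpin RNA against Fabp7 (Res_shFabp7). The mouse strain and age, how the T cells were stimulated and how they were separated from the partner cells are not given in the sources used here. Nothing in the labels says that the libraries of a group came from separate animals or cultures, so the p-values rest on the spread among libraries that may be technical repeats. Cells that had not been activated were not analysed here, so the text describes the step from 24 h to 48 h and no step before it.

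A T cell that meets its antigen first turns on immediate early transcription factors and the growth factor interleukin-2, then enlarges by building ribosomes, chaperones and transporters, and only afterwards replicates its DNA and divides. Dividing cells make histones in S phase and a burst of mitotic regulators in G2, many of them from promoters that carry the CCAAT box bound by the factor NF-Y. CD8 T cells that continue along this course fill granules with granzymes and perforin, while interferons, released by T cells and other cells, switch on antiviral genes through short promoter elements.

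The libraries held 34.0 to 38.6 M counts, and 16945 of the 53762 gene symbols had enough counts to be tested, while 24653 symbols had no count in any library. No pair of replicates agreed within counting noise (chi-square over its degrees of freedom 5.41 to 14.2), so no library was taken for a second deposit of another. The number of genes with a count was 21489 to 21774 at 24 h and 23145 to 23239 at 48 h. The label of T cells was checked against 20 T cell identity genes, all of which were above 10 CPM: the summed level of these genes was 7493 to 7586 CPM at 24 h and 5896 to 6086 CPM at 48 h. Here CPM means a count divided by the library size in M counts, after scaling by TMM, a factor that offsets differences in composition. The factor was 0.951 to 0.963 in the libraries at 24 h and 1.08 to 1.10 at 48 h, and since CPM does not correct for gene length, levels are compared only within a gene. Shares of counts given below are of a library's raw total, without TMM. Fabp7 had 0 counts in the 24 h libraries and 3, 1 and 1 counts in the 48 h libraries and was not tested.

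Promoter sequences of members that moved together are shown first, because the shares of short motifs in them are given with the results. They are from RefSeq (build GRCm38.p6), written 5′ to 3′ along the gene's strand and ending just before the gene's start, in lower case with the motif in capitals. The table held a promoter for 11315 of the 16945 tested symbols. For 3 mitotic genes the capitals mark the CCAAT box, read as ATTGG where it lies on the other strand. These are the promoters of Ccnb2 (chr9:70421555-70421704, minus strand), Cdk1 (chr10:69352913-69353062, minus strand) and Ube2c (chr2:164769779-164769928, plus strand).
Ccnb2: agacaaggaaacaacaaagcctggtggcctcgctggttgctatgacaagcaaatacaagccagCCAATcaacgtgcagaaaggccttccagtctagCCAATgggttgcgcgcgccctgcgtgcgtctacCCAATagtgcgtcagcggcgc
Cdk1: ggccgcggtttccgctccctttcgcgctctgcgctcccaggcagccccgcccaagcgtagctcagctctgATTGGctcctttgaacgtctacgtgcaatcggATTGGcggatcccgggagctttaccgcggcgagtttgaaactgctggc
Ube2c: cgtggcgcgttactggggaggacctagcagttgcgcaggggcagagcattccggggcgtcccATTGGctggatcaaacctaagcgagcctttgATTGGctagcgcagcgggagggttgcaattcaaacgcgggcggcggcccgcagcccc
For 3 interferon-induced genes the capitals mark the letters GAAANNGAA, the core of the interferon-stimulated response element, read as TTCNNTTTC where it lies on the other strand, and neighbouring matches overlap in Isg15 and Irgm1. They are Ifit3 (chr19:34583349-34583528, plus strand), Isg15 (chr4:156200819-156200968, minus strand) and Irgm1 (chr11:48871421-48871570, minus strand).
Ifit3: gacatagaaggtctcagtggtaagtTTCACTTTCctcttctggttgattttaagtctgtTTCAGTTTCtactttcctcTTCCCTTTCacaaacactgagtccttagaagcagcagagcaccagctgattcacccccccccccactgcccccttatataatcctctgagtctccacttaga
Isg15: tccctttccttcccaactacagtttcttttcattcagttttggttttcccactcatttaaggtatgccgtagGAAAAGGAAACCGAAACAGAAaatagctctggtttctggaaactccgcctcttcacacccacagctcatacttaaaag
Irgm1: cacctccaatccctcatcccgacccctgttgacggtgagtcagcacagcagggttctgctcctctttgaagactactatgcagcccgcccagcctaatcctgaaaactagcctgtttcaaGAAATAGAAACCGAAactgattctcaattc
For Slc16a3 (chr11:120948917-120949066, plus strand), which encodes the lactate exporter MCT4, the capitals mark ACGTGC, letters that hypoxia-inducible factors bind.
Slc16a3: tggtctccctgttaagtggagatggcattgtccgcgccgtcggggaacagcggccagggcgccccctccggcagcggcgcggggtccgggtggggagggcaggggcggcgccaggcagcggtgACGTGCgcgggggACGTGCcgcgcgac
Both strands of all 27025 promoters of the table were searched for 12 motifs, over the 250 bases before the start. The CCAAT box was found in 80.8% of the matched promoters of the mitosis list, 61.5% of the S phase list and 89.5% of the replication histones, against 34.5% of all promoters. It was also found, in lists with more falls than rises, in 88.2% of the unfolded protein response list and 56.5% of the amino acid stress list, and in 30.8% of the glycolysis and hypoxia list, with more rises. The letters TTTGAA, the cell cycle homology region of mitotic promoters, were found in 42.3% of the mitosis list and 52.6% of the histones against 16.3% of all, and TTTNNCGC, a form of the E2F site, in 30.8% of the S phase list, 26.3% of the histones and 20% of the ribosome assembly list against 4.39% of all. The E-box CACGTG was found in 5% of the ribosome assembly and MYC target list and in 6.05% of all promoters. ACGTGC was found in 38.5% of the glycolysis and hypoxia list and in 4.91% of all promoters. GAAANNGAA was found in 7.16% of all promoters, and no share is given for the interferon lists, since fewer than 80% of their members had a promoter in the table. The 27025 promoters include those of genes not tested here, so the comparison is not matched for expression. CCACG, another motif of the search, was found in 28.2% of all promoters. In the lists given it was in 38.5% (S phase) to 70.6% (unfolded protein response), except the histones at 10.5%. A match describes the letters and does not show that a factor binds there.

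Between 24 h and 48 h most of the measured transcriptome changed. In all, 11478 of 16945 tested genes (67.7%) passed the threshold of an adjusted p of 0.05 by edgeR's quasi-likelihood test, 6063 of them (35.8%) higher and 5415 (32.0%) lower at 48 h. The median absolute change of these genes was 0.69 on the log2 scale, and in 68.6% of tested genes the libraries of the times did not overlap (36.7% higher and 32.0% lower at 48 h). Large changes were mostly increases: 3070 genes (18.1%) rose and 877 (5.18%) fell at least 2-fold, 1341 (7.91%) rose and 100 (0.590%) fell at least 4-fold, and 230 (1.36%) rose and 3 (0.0177%) fell at least 16-fold. Of the 1341 genes that rose at least 4-fold, 1027 had averaged under 1 CPM at 24 h, and of the 100 that fell as much, 73 averaged under 1 CPM at 48 h. The balance of rises and falls depended on the level. Among 2364 genes with a mean of 100 to 1000 CPM, 20.2% rose and 62.9% fell, whereas of 3858 genes with a mean of 1 to 10 CPM 49.3% rose and 17.8% fell. The split also moved with the scaling: rises made up 52.8% of the calls with TMM, 60.7% with upper-quartile factors (6932 up, 4491 down) and 67.2% with library totals alone (7746 up, 3781 down), which shifted the median of all genes by 0.10 and 0.19 on the log2 scale. Small falls below are therefore relative to the TMM scale. List counts below stand beside 35.8% of all tested genes higher and 32.0% lower, shares that differed by level.

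**Figure D1:**
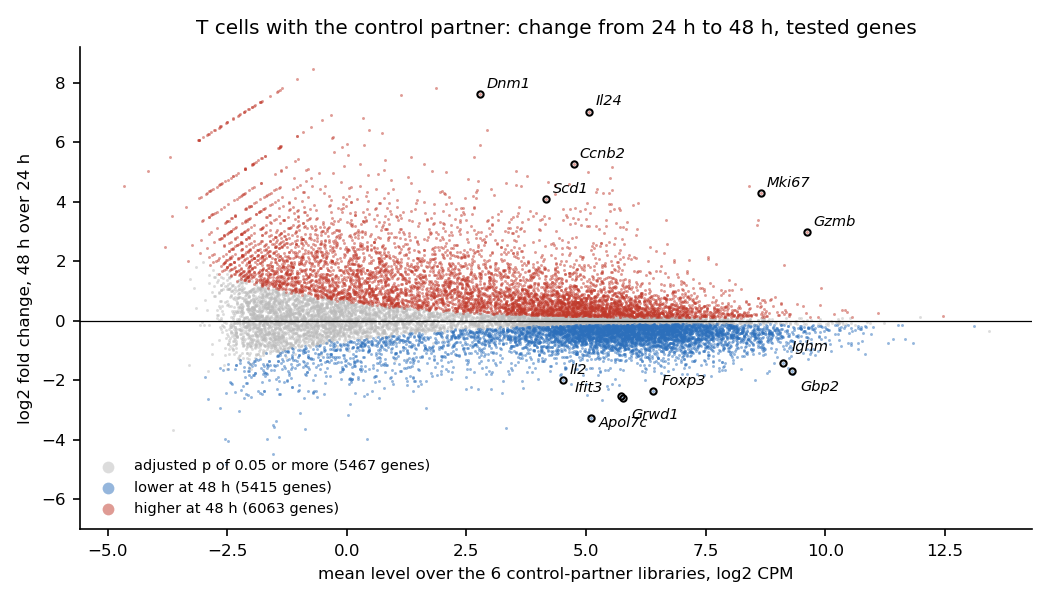
Mean level over the 6 libraries (x axis, log2 CPM) against the log2 fold change from 24 h to 48 h for the 16945 tested genes, 6063 called higher, 5415 called lower and 5467 not called. The diagonal streaks at low levels are genes with 0 or a few counts at 24 h, whose fitted fold change depends on the prior count.

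Genes of mitosis rose together, with the largest median of all lists examined. Of 32 measured members of the mitosis and G2 list, 31 rose, each of them at least 2-fold, and none fell, with a median of 3.72 on the log2 scale against 0.04 for all tested genes. The list took 0.0392%, 0.041% and 0.0366% at 24 h and 0.379%, 0.434% and 0.395% at 48 h of all counts, so the 2 times did not overlap (exact permutation test, two-sided, p = 0.1, the smallest that 3 libraries against 3 can give). Ccnb2, cyclin B2 of the kinase complex that starts mitosis, was at 0.891, 1.47 and 1.65 CPM at 24 h and 50.8, 56.3 and 49.2 CPM at 48 h. Its change was 5.27 ± 0.11 on the log2 scale (SE, adjusted p = 1.94e-28), with every 48 h library far above every 24 h library. Cdk1, the kinase of that complex, was at 10.7, 11.7 and 9.05 CPM at 24 h and 97.2, 112 and 105 CPM at 48 h (log2 3.32 ± 0.08). Mki67, the gene of the proliferation antigen Ki-67, was at 40.1, 39.6 and 37.8 CPM at 24 h and 734, 833 and 723 CPM at 48 h (log2 4.28 ± 0.07, adjusted p = 4.41e-29). The marker was thus well above 0 at 24 h already and far higher in each 48 h library. Ube2c, which passes ubiquitin to mitotic cyclins, changed by 4.78 ± 0.10, Nusap1, a spindle protein, by 5.01 ± 0.12 and Birc5, the survivin of the chromosomal passenger complex, by 3.95 ± 0.08. The range among the 31 ran from 1.87 for Mad2l1, a spindle checkpoint protein, to 5.27 for Ccnb2. The exception was Bub3, another checkpoint protein, at 103, 109 and 99.8 CPM at 24 h and 108, 109.8 and 105 CPM at 48 h (log2 0.05 ± 0.05, adjusted p = 0.374), where the libraries of the times overlapped.

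DNA replication genes also rose, by less and with more spread among members. Of 32 measured members, 29 rose, 1 fell and 2 did not pass, with a median of 0.96, and their share of counts went from 0.297% ± 0.0154 to 0.511% ± 0.0149 (SD, n = 3). The members divided by role. The largest rises were in enzymes of nucleotide supply: Rrm2, the small subunit of ribonucleotide reductase, was at 18, 16.7 and 18.8 CPM at 24 h and 193, 189.8 and 171 CPM at 48 h (log2 3.37 ± 0.06, adjusted p = 1.8e-29). Tk1, thymidine kinase, was at 8.48, 9.94 and 9.44 CPM at 24 h and 90.8, 95.2 and 84.3 CPM at 48 h (log2 3.27 ± 0.07). In both genes every 48 h library was above every 24 h library. The MCM genes, which encode the ring-shaped helicase loaded onto DNA before S phase, moved little by comparison. Mcm3, Mcm4, Mcm6 and Mcm7 rose by 0.18 to 0.48, Mcm5 did not pass at 307, 342 and 292 CPM at 24 h and 289, 301 and 275 CPM at 48 h (log2 -0.12 ± 0.06, adjusted p = 0.0504), and Mcm2 was the member that fell, from 320.0, 334 and 303 CPM to 250.2, 232 and 229 CPM (log2 -0.43 ± 0.05, adjusted p = 6.69e-09). The sign of the Mcm5 value turned with library totals as scaling, where it was 0.07. Ccne2, a cyclin that starts S phase, was at 2.86, 2.23 and 1.51 CPM at 24 h and 13.8, 19.1 and 19.8 CPM at 48 h (log2 3.00 ± 0.18), and E2f2, a transcription factor of this programme, at 12.7, 11.3 and 13.1 CPM at 24 h and 85.9, 87.5 and 82 CPM at 48 h (log2 2.78 ± 0.07).

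The clustered histone genes, which package newly made DNA, were low in both groups and higher at 48 h. Of 24 listed members 21 could be tested, and 20 of these rose, 19 of them at least 2-fold, and none fell, with a median of 2.39. H3c3 was at 0.215, 0.136 and 0.341 CPM at 24 h and 4.44, 3.78 and 3.42 CPM at 48 h (log2 4.06 ± 0.28, adjusted p = 1.16e-14). H3c8 had 2 counts over the 24 h libraries and 186 at 48 h, a ratio of 84.2 with a 95% counting interval from 23.0 to 701. H2ac4 had no count at 24 h and 76 at 48 h, which makes it at least 22.9-fold higher against a floor of 3 counts over the group. These genes are near-identical copies and most of their transcripts lack a poly(A) tail, so their levels are uncertain in a count table of unstated library type. H4c1 was the member that did not pass (log2 0.39 ± 0.31, adjusted p = 0.266), and its libraries did not overlap.

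Regulators of the G1 phase split. Of 19 measured, 11 rose and 6 fell. Ccnd2, a D-type cyclin that drives cells through G1, fell from 2001, 2105 and 2118 to 1331, 1180.2 and 1197 CPM (log2 -0.75 ± 0.05, adjusted p = 5.16e-14), whereas Ccnd3 rose by 0.66 ± 0.05. Some inhibitors in the list rose. Cdkn1a, the p21 inhibitor that p53 induces, was at 74.1, 93.1 and 96.7 CPM at 24 h and 349, 316 and 330.3 CPM at 48 h (log2 1.91 ± 0.08), and Cdkn2c, the p18 inhibitor of CDK4 and CDK6, at 4.64, 3.87 and 3.9 CPM at 24 h and 19.2, 18.7 and 17.8 CPM at 48 h (log2 2.17 ± 0.12). E2f4, a factor of resting-cell repressor complexes, fell by 0.62 on the log2 scale.

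**Figure D2:**
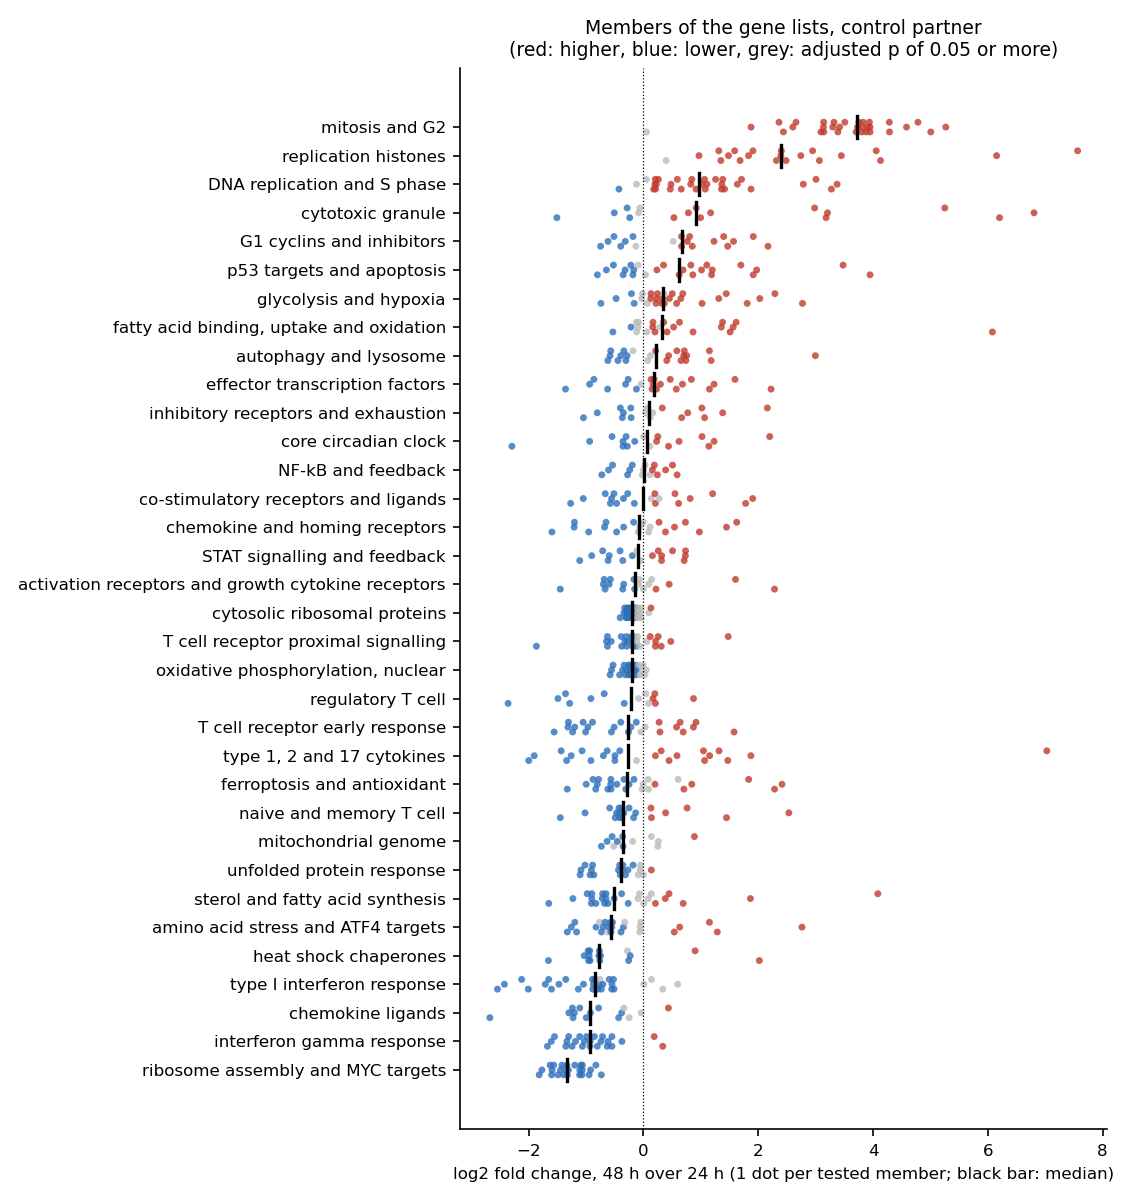
Log2 fold change from 24 h to 48 h of the tested members of the gene lists, with each point a gene and a mark at the list's median. The mitosis list lies to the right with a median of 3.72 and the ribosome assembly list to the left with a median of -1.33.

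The machinery for building ribosomes went the other way. All 25 members of the ribosome assembly and MYC target list fell, 21 of them at least 2-fold, with a median of -1.33. Of all tested genes 32.0% fell, and of those with a mean of 100 to 1000 CPM 62.9%. The list took 1.0%, 1.07% and 0.975% at 24 h and 0.524%, 0.522% and 0.52% at 48 h of all counts, without overlap. Utp20, a factor of the small subunit processome, was at 266, 283 and 283 CPM at 24 h and 91, 74.8 and 70.2 CPM at 48 h (log2 -1.82 ± 0.07, adjusted p = 7.99e-20). Polr1b, a core subunit of RNA polymerase I, was at 138, 150.1 and 151 CPM at 24 h and 51, 39.3 and 38.7 CPM at 48 h (log2 -1.77 ± 0.08). Both were lower in every 48 h library. Grwd1, a ribosome assembly and chromatin factor, and Ccdc86, a nucleolar protein, were among the 12 largest falls of genes that averaged 5 CPM or more at one time, with predicted genes and immunoglobulin or receptor segments left out: Grwd1 was at 87.5, 96.8 and 95.5 CPM at 24 h and 17.3, 15.4 and 13.7 CPM at 48 h (log2 -2.60 ± 0.07, adjusted p = 4.31e-26) and Ccdc86 changed by -2.31 ± 0.08. The smallest falls of the list were those of Odc1, the first enzyme of polyamine synthesis (log2 -0.74 ± 0.06), and Npm1, nucleophosmin (log2 -0.83 ± 0.07). Myc, the growth regulator in the name of this list, was at 507, 525 and 544 CPM at 24 h and 398, 343 and 329.8 CPM at 48 h (log2 -0.56 ± 0.06, adjusted p = 1.87e-10). Whether the listed genes follow Myc here was not tested.

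The proteins of the ribosome itself changed far less. Of 30 cytosolic ribosomal protein genes, 21 fell, 1 rose and 8 did not pass, all within 0.41 on the log2 scale, and their share of counts was 3.96% ± 0.239 at 24 h and 3.99% ± 0.197 at 48 h (SD, n = 3). Rps2 showed the largest fall, from 1561, 1745 and 1642 to 1319, 1241 and 1172 CPM (log2 -0.41 ± 0.05). The one rise, Rps19 (log2 0.13 ± 0.05, adjusted p = 0.0309), lost its call without 24 h replicate 1, without 24 h replicate 3 and without 48 h replicates 2 or 3. The 21 falls became 12 without 24 h replicate 2, 11 with upper-quartile scaling, 4 with library totals and 2 when a minimum fold of 1.2 was required.

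Protein folding genes fell with the assembly factors. Their counts stand beside 62.9% of all genes with a mean of 100 to 1000 CPM that fell, and 43.8% with 10 to 100 CPM. Of 16 heat shock chaperones, 13 fell and 2 rose (median -0.77), and their share of counts went from 1.15% ± 0.0412 to 0.733% ± 0.0184. Hsph1, an HSP110 chaperone, was at 337, 361 and 351 CPM at 24 h and 122, 104 and 107 CPM at 48 h (log2 -1.66 ± 0.06, adjusted p = 2.63e-23). Dnaja1, a co-chaperone of HSP70, was at 356, 355 and 295 CPM at 24 h and 154, 165 and 173 CPM at 48 h (log2 -1.03 ± 0.06). The 48 h libraries of both lay below those at 24 h. The members that rose were the stress-inducible pair Hspa1a, at 0.676, 0.899 and 0.825 CPM at 24 h and 2.94, 3.01 and 3.83 CPM at 48 h, and Hspa1b, at 2.43, 3.1 and 2.99 CPM at 24 h and 5.53, 5.63 and 4.78 CPM at 48 h, which are near-identical and whose reads may have been split. Of 20 genes of the unfolded protein response, which relieves the endoplasmic reticulum, 15 fell and 1 rose (median -0.39). Hspa5, the chaperone BiP, was at 1012, 1084 and 954 CPM at 24 h and 469, 478 and 485 CPM at 48 h (log2 -1.09 ± 0.05), and Calr, calreticulin, changed by -1.10 ± 0.05. Xbp1, the transcription factor of this response, was at 217, 216 and 221 CPM at 24 h and 217, 209 and 204 CPM at 48 h and did not pass (adjusted p = 0.327).

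Targets of ATF4, the factor that answers a shortage of amino acids, fell in 15 of 26 cases and rose in 5 (median -0.56), and 1 library stood apart. Replicate 3 at 24 h was high in several members. Chac1, a glutathione-degrading enzyme, was at 4.27, 5.5 and 14.5 CPM at 24 h and 2.86, 3.63 and 3.2 CPM at 48 h, Trib3, a pseudokinase, at 8.21, 7.84 and 22 CPM at 24 h and 6.49, 5.27 and 5.21 CPM at 48 h, and Slc7a5, the large neutral amino acid transporter, at 225, 229 and 333 CPM at 24 h and 121, 102 and 106 CPM at 48 h. The list's share of counts was 0.236%, 0.248% and 0.315% at 24 h and 0.22%, 0.212% and 0.215% at 48 h. The call of Slc7a5 (log2 -1.26 ± 0.15, adjusted p = 3.77e-05) held under every alternative tried, while that of Chac1 (log2 -1.33 ± 0.48, adjusted p = 0.035) was lost under 8 of 15. The 15 falls became 8 with library totals as scaling. Ddit4, an inhibitor of the growth kinase mTORC1, was a member that rose, from 68.8, 73.6 and 84 to 189, 172 and 191 CPM (log2 1.29 ± 0.06, adjusted p = 1.68e-17).

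Lipid genes divided by enzyme. Of 27 measured genes of sterol and fatty acid synthesis, 16 fell and 6 rose (median -0.51). Fasn, fatty acid synthase, was at 706, 725 and 723 CPM at 24 h and 368, 274 and 276 CPM at 48 h (log2 -1.23 ± 0.08, adjusted p = 4.97e-11). The stearoyl-CoA desaturases, which make monounsaturated fatty acids, went up instead. Scd1 was at 1.81, 1.82 and 2.36 CPM at 24 h and 31.7, 33.9 and 36.3 CPM at 48 h (log2 4.08 ± 0.12) and Scd2 at 229.5, 246 and 251 CPM at 24 h and 911, 872 and 861 CPM at 48 h (log2 1.86 ± 0.05, adjusted p = 5.91e-25), and no library of one time reached the range of the other. Of 22 measured genes for binding, taking up and oxidising fatty acids, 14 rose and 2 fell (median 0.32). Cpt1a, which admits fatty acids into mitochondria, was at 31.4, 30.6 and 30.6 CPM at 24 h and 83.4, 79.1 and 74.8 CPM at 48 h (log2 1.36 ± 0.06). Acadl, a dehydrogenase of the oxidation cycle, changed by 1.51 ± 0.07 and Plin2, a coat protein of lipid droplets, by 1.56 ± 0.08. Fabp5, a fatty acid binding protein of immune and epithelial cells, was at 42, 51.7 and 36.1 CPM at 24 h and 39.2, 40.3 and 39.8 CPM at 48 h and did not pass (adjusted p = 0.222). Its change passed without 24 h replicate 3 (log2 -0.22, adjusted p = 0.00921 by edgeR) and turned positive, at 0.047, without 24 h replicate 2.

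Most glycolysis genes rose and most nuclear respiration genes fell, largely by small amounts. Of 28 genes of glycolysis and the hypoxia response, 20 rose and 4 fell (median 0.35), and their share of counts went from 0.887% ± 0.0297 to 1.23% ± 0.0294. Aldoc, an aldolase isoform, was at 1.57, 2.1 and 1.62 CPM at 24 h and 11.5, 12.3 and 12.4 CPM at 48 h (log2 2.77 ± 0.14), but other enzymes of the pathway moved little, with Gapdh at 0.13 ± 0.05, Pkm at 0.36 ± 0.05 and Eno1 at 0.50 ± 0.05 on the log2 scale. Larger changes were in glucose and lactate transport. Slc16a3, the lactate exporter whose promoter is shown above, was at 16.1, 18.4 and 18.2 CPM at 24 h and 98.4, 80.7 and 79.2 CPM at 48 h (log2 2.29 ± 0.08, adjusted p = 2.45e-21). Slc2a3, a glucose transporter, was at 46.7, 44.5 and 43.7 CPM at 24 h and 192, 181 and 177 CPM at 48 h (log2 2.03 ± 0.05) and Hk2, the hexokinase that traps glucose, at 75.3, 81.3 and 84 CPM at 24 h and 183, 158 and 147 CPM at 48 h (log2 1.02 ± 0.06). The glucose transporter Slc2a1 did not follow: it was at 89.3, 88.9 and 91.8 CPM at 24 h and 87.5, 72.2 and 73.9 CPM at 48 h (log2 -0.21 ± 0.06, adjusted p = 0.00218), a fall that did not pass with upper-quartile or library-total scaling. Of 26 nuclear genes of oxidative phosphorylation, 20 fell and none rose (median -0.21), where 62.9% of all genes with a mean of 100 to 1000 CPM fell. Their share of counts, not scaled by TMM, was 0.475% ± 0.0212 at 24 h and 0.459% ± 0.00704 at 48 h and overlapped between the times (exact permutation test, two-sided, p = 0.3). Ndufs3 of complex I fell from 70.5, 74.2 and 65.2 to 44.8, 47.7 and 47.6 CPM (log2 -0.58 ± 0.06) and Cyc1 of complex III from 164, 180.1 and 166 to 123, 111 and 112 CPM (log2 -0.56 ± 0.05). The 20 falls became 11 without 24 h replicate 2 and 8, beside 6 rises, with library totals as scaling. Of 12 measured genes of the mitochondrial genome, 6 fell, mt-Nd2 by 0.73 and mt-Nd1 by 0.63 on the log2 scale. mt-Nd6, which lies on the other strand of that genome, rose from 40.8, 34.7 and 36.9 to 75.7, 63 and 69.1 CPM (log2 0.89 ± 0.19, adjusted p = 0.00222), in a table whose strand handling is not given. Copies of mitochondrial genes in nuclear DNA make these counts uncertain.

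Genes of the early T cell receptor response went both ways. Of 25 members, 15 fell and 8 rose (median -0.26). Of all genes with a mean of 100 to 1000 CPM 62.9% fell, and of those with 10 to 100 CPM 43.8%. Cd69, the early activation antigen, was at 250.2, 261 and 249.7 CPM at 24 h and 92.9, 102 and 110.3 CPM at 48 h (log2 -1.32 ± 0.06, adjusted p = 2.06e-20). Nfkbid, an atypical inhibitor protein of NF-kB induced in lymphocytes, was at 208, 212 and 219 CPM at 24 h and 81.7, 65.9 and 69.6 CPM at 48 h (log2 -1.56 ± 0.06). Irf4, a factor whose amount follows the strength of the signal, was at 1047, 1139 and 1185 CPM at 24 h and 594, 529 and 502 CPM at 48 h (log2 -1.05 ± 0.06). In these genes all 48 h libraries were lower. Egr2, a factor of the same early wave, fell by 0.89, whereas the AP-1 gene Fos rose from 16.4, 15 and 18.1 to 30.4, 31.2 and 31.7 CPM (log2 0.91 ± 0.08). Nr4a1, a reporter of receptor signals, fell by 0.26 on the log2 scale, a call lost with library totals and with the minimum fold of 1.2. Of 27 proximal signalling genes, 16 fell and 7 rose, where 62.9% of all genes with a mean of 100 to 1000 CPM fell. Prkcq, the kinase PKC-theta at the synapse, was at 311, 295 and 320.2 CPM at 24 h and 87.1, 83.9 and 83.1 CPM at 48 h (log2 -1.87 ± 0.05, adjusted p = 4.98e-25), the largest change of that list by size. Themis, an adaptor of thymic selection, was at 68.3, 63.8 and 61 CPM at 24 h and 161, 189 and 186 CPM at 48 h (log2 1.48 ± 0.06). The 16 falls became 8 with library totals and 7 with the minimum fold.

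Cytokine genes moved in opposite directions, 11 up and 12 down of 24. Il2 was at 36.4, 39.6 and 34.4 CPM at 24 h and 8.34, 9.52 and 9.72 CPM at 48 h (log2 -1.999 ± 0.09, adjusted p = 7.12e-19), and Tnf at 205, 234 and 214 CPM at 24 h and 96.6, 79.9 and 81.8 CPM at 48 h (log2 -1.34 ± 0.06). Both had fallen in every 48 h library. Ifng, interferon gamma, went the other way, at 119, 141 and 113 CPM at 24 h and 268, 267 and 293 CPM at 48 h (log2 1.15 ± 0.07, adjusted p = 7.62e-13), as did Csf2, the granulocyte-macrophage factor GM-CSF, at 15.4, 17.2 and 17.1 CPM at 24 h and 43.3, 44.2 and 50.3 CPM at 48 h (log2 1.47 ± 0.07). Of the type 2 cytokines, Il4 fell from 16.9, 16.6 and 13.9 to 5.45, 6.02 and 6.02 CPM (log2 -1.43 ± 0.10) while Il13 was at 92.2, 108 and 85.9 CPM at 24 h and 124, 112 and 119 CPM at 48 h (log2 0.31 ± 0.06, adjusted p = 5.3e-05), a rise lost with the minimum fold of 1.2. Il17a and Il17f, of type 17 cells, fell by 1.26 and 1.90 from levels of at most 3.38 CPM, and Il10 fell by 0.92. Il24, an interleukin-10 family cytokine, showed the largest rise of any listed gene above 5 CPM at 48 h. It was at 0.768, 0.545 and 0.228 CPM at 24 h and 61.1, 70.03 and 69 CPM at 48 h (log2 7.03 ± 0.14, adjusted p = 3.5e-26), so it went from under 1 CPM in each 24 h library to over 60 CPM in each 48 h library.

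**Figure D3:**
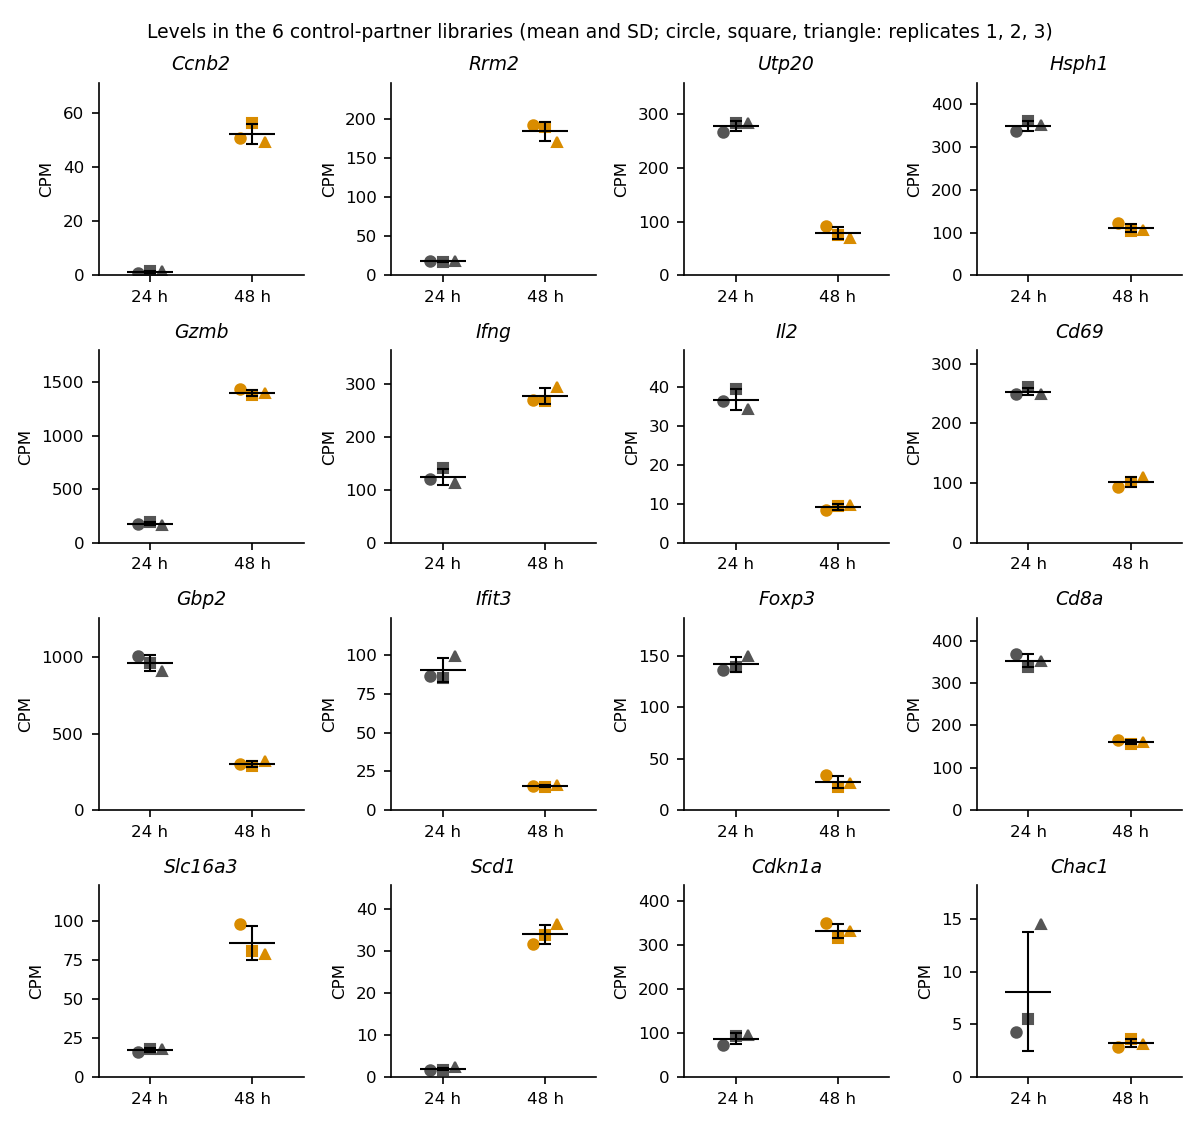
Level in each library (CPM, linear axes from 0) of 16 genes at 24 h and 48 h with the control partner, with each point a library, the long bar the mean of 3 and the whiskers the SD. Gzmb and Ccnb2 lie higher and Il2, Cd69, Gbp2 and Foxp3 lower at 48 h, with no overlap between the times, and 24 h replicate 3 stands apart in Chac1.

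Granule genes rose. Of 17 measured genes of the cytotoxic granule, 11 rose, 7 of them at least 2-fold, and 4 fell (median 0.92), and their share of counts went from 0.131% ± 0.00677 to 0.369% ± 0.0151. Gzmb, granzyme B, was at 175, 193 and 164 CPM at 24 h and 1433, 1376 and 1395 CPM at 48 h (log2 2.98 ± 0.06, adjusted p = 1.94e-29). Serpinb6b, a serpin of the same cells, was at 80.2, 80.3 and 63.1 CPM at 24 h and 573, 738 and 753 CPM at 48 h (log2 3.21 ± 0.12), and Gzmc at 1.17, 1.28 and 1.17 CPM at 24 h and 12, 10.4 and 10.6 CPM at 48 h (log2 3.18 ± 0.14). All of these were far apart between the times. Prf1, the pore-forming perforin, rose less, from 32.5, 34.3 and 29.7 to 58.2, 52.2 and 55.5 CPM (log2 0.78 ± 0.07). The granzymes of the same gene cluster as Gzmc came from near 0. Gzmf had 1 count at 24 h and 111 at 48 h (ratio 101, 95% counting interval 17.7 to 4006.5), Gzmd 1 and 57, and Gzme 0 and 45, at least 13.6-fold higher against the floor. These paralogs are similar in sequence, and reads may have been split among them. Gzmk fell from 4.0, 3.65 and 3.78 to 1.39, 0.978 and 1.64 CPM (log2 -1.51 ± 0.20) and Gzma did not pass (log2 -0.09 ± 0.16, adjusted p = 0.66). Of the 4 falls 1 remained called with library totals as scaling.

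Chemokine ligands fell in 11 of 15 cases and rose in 1 (median -0.92). Ccl1, a ligand of CCR8, was at 63.3, 79.4 and 66.9 CPM at 24 h and 13.4, 9.88 and 9.57 CPM at 48 h (log2 -2.68 ± 0.16, adjusted p = 3.96e-08), and Cxcl10, which draws CXCR3-bearing cells and is induced by interferon gamma, at 26.6, 27.6 and 33 CPM at 24 h and 13.6, 10.7 and 12.7 CPM at 48 h (log2 -1.24 ± 0.09). The 2 times were separate in both. Ccl9 was the member that rose, from 6.05, 5.88 and 5.46 to 8.31, 7.69 and 7.5 CPM (log2 0.43 ± 0.11). Among 21 measured chemokine and homing receptors, 7 rose and 9 fell. Cxcr3 itself was at 35.3, 34.7 and 37 CPM at 24 h and 12, 11.2 and 12.1 CPM at 48 h (log2 -1.60 ± 0.07, adjusted p = 1.3e-19), and Cxcr5, the receptor that leads to B cell follicles, at 10.1, 10.6 and 10.5 CPM at 24 h and 31.6, 32.5 and 32.1 CPM at 48 h (log2 1.62 ± 0.08). The gut homing receptor Ccr9 rose from 13, 11.5 and 11.6 to 30.6, 35.3 and 32.3 CPM (log2 1.45 ± 0.09).

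Interferon-induced genes fell, in the libraries in which Ifng was higher. Of 25 genes of the interferon gamma response, 23 fell, 11 of them at least 2-fold, and 2 rose (median -0.93), and the list's share of counts was 1.18%, 1.1% and 1.13% at 24 h and 0.727%, 0.711% and 0.738% at 48 h. Irgm1, a GTPase that acts on vacuoles holding microbes, was at 461, 454 and 450.5 CPM at 24 h and 153, 145 and 150.3 CPM at 48 h (log2 -1.61 ± 0.05, adjusted p = 2.03e-23). Gbp2, a guanylate binding protein, was at 1011, 965 and 909 CPM at 24 h and 298, 285 and 320.4 CPM at 48 h (log2 -1.67 ± 0.06), and Gbp4 changed by -1.24 ± 0.06. Irf1, the transcription factor at the head of this programme, was at 829, 769 and 784 CPM at 24 h and 437, 397 and 419 CPM at 48 h (log2 -0.93 ± 0.06). Every 48 h library was below every 24 h library in these genes. The rises were Psmb9, an immunoproteasome subunit (log2 0.34 ± 0.05, adjusted p = 5.3e-07), and Irf8 (log2 0.19 ± 0.05), the latter not called with the minimum fold of 1.2. Socs1, which blocks the kinases of the interferon receptors, was at 458, 431 and 463 CPM at 24 h and 234, 196 and 196 CPM at 48 h (log2 -1.11 ± 0.06). Gbp and Irg family members are similar in sequence and some reads may have been shared.

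The type I interferon list showed the same direction, with 24 of 29 members lower, 11 of them at least 2-fold, and none higher (median -0.85). Ifit3, an antiviral RNA-binding protein, was at 86.8, 85 and 99.3 CPM at 24 h and 15.5, 14.8 and 16.1 CPM at 48 h (log2 -2.54 ± 0.16, adjusted p = 9.89e-08), and Ifi44 at 15.8, 13.5 and 18.5 CPM at 24 h and 3.52, 2.57 and 2.82 CPM at 48 h (log2 -2.42 ± 0.25). Isg15, the ubiquitin-like modifier, was at 39.3, 40.7 and 46.3 CPM at 24 h and 21.4, 17.6 and 18.5 CPM at 48 h (log2 -1.14 ± 0.09) and Irf7, the factor that amplifies this response, at 116, 106 and 128 CPM at 24 h and 46, 37.7 and 42.1 CPM at 48 h (log2 -1.47 ± 0.13). The times did not overlap in these 4 genes, though Ifit3 has a near-identical neighbour, Ifit3b, that may share its reads. The 5 members that did not pass were Mx1, Mx2, Usp18, Rsad2 and Ifitm3. In 24 h replicate 3 Mx1 was at 19.3 CPM and Rsad2 at 7.48 CPM, above the other replicates of that time. Without that library 2 members of the list were called higher.

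**Figure D4:**
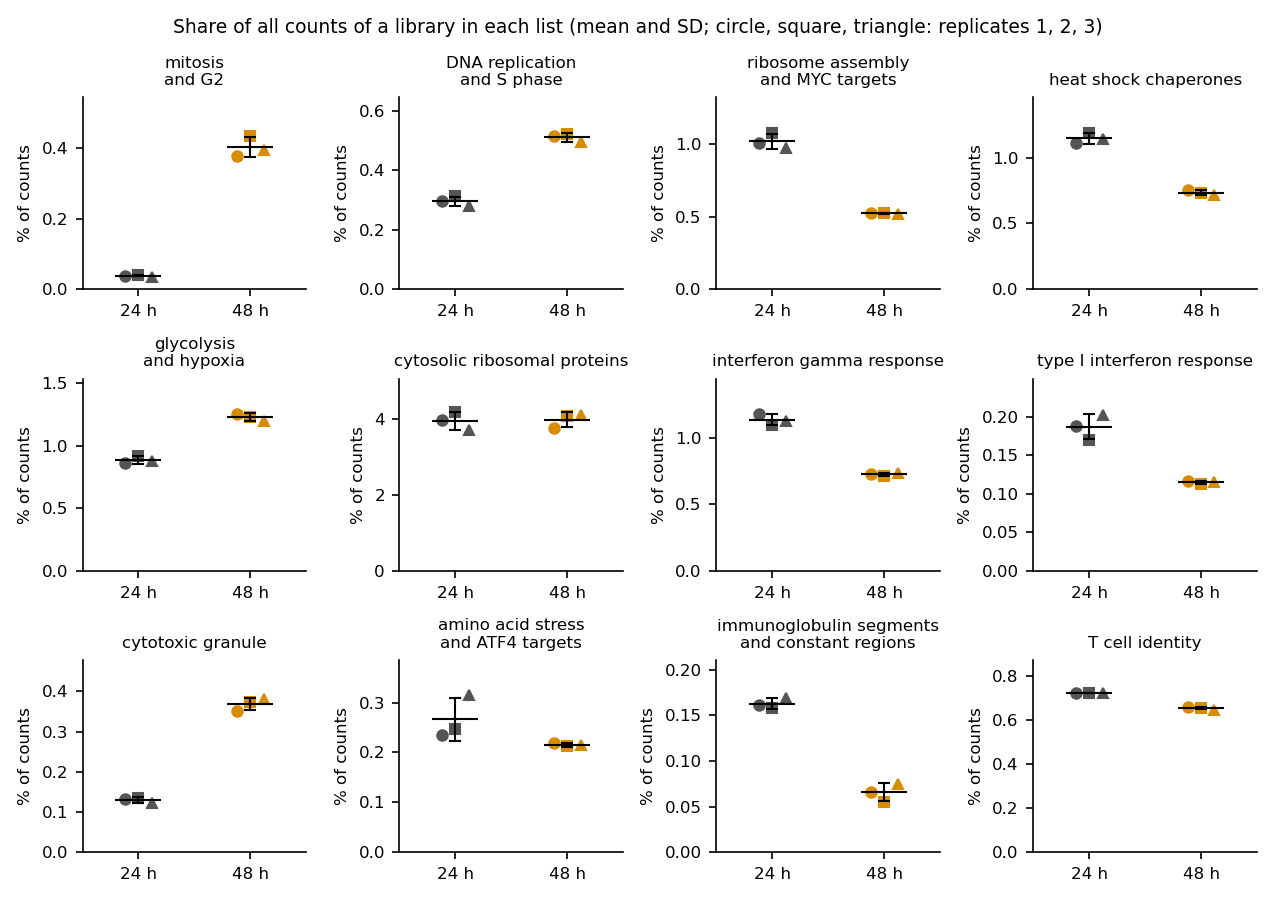
Share of all counts in each library taken by gene lists at 24 h and 48 h, in percent, with each point a library, the long bar the mean of 3 and the whiskers the SD. The mitosis and cytotoxic lists take more at 48 h and the ribosome assembly and interferon gamma lists less, with no overlap.

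Most genes of T cell identity and rest were lower at 48 h, as were most genes of similar level. In bulk RNA, fewer cells of a type and less RNA per cell cannot be told apart, and this holds for each subset marker below. Of 20 identity genes, 14 fell and 3 rose, where 62.9% of all genes with a mean of 100 to 1000 CPM and 43.8% of those with 10 to 100 CPM fell. Cd8a was at 368, 338 and 352 CPM at 24 h and 165, 157 and 161 CPM at 48 h (log2 -1.13 ± 0.05, adjusted p = 5.41e-19) and Cd4 at 449, 463 and 465 CPM at 24 h and 574, 565 and 548 CPM at 48 h (log2 0.29 ± 0.05, adjusted p = 2.45e-06), so the CD8 and CD4 co-receptor genes went in opposite directions, although the Cd4 rise was not called with the minimum fold of 1.2. Bcl11b, a factor of T cell commitment, was at 436, 394 and 434 CPM at 24 h and 223, 212 and 208 CPM at 48 h (log2 -0.98 ± 0.05), and Thy1 was the largest rise of the list (log2 0.55 ± 0.05). All 20 genes of the naive and memory list passed, 14 lower and 6 higher. Cd27, a co-stimulatory receptor of resting cells, was at 175, 166 and 173 CPM at 24 h and 67.2, 60.5 and 60.6 CPM at 48 h (log2 -1.45 ± 0.05), and Klf2, which keeps the receptors for leaving lymph nodes on, at 189, 182 and 213 CPM at 24 h and 95.8, 89 and 103 CPM at 48 h (log2 -1.02 ± 0.07). Tcf7, the factor TCF-1, fell by 0.34. Dapl1 was at 14.4, 13 and 10.8 CPM at 24 h and 61.7, 77 and 81.6 CPM at 48 h (log2 2.53 ± 0.13) and Il7r, the interleukin-7 receptor, at 98.8, 84.8 and 93.1 CPM at 24 h and 138, 163 and 166 CPM at 48 h (log2 0.76 ± 0.06), both higher at 48 h. The fall of Ccr7 (log2 -0.17 ± 0.05) turned to 0.02 with library totals as scaling.

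Regulatory T cell genes fell in 7 of 14 cases and rose in 4, beside 32.0% and 35.8% of all tested genes. The list's share of counts, which is not scaled by TMM, was 0.211% ± 0.00625 at 24 h and 0.243% ± 0.00364 at 48 h (SD, n = 3). The times did not overlap (exact permutation test, two-sided, p = 0.1, the smallest possible). Whether the share also rises on the TMM scale was not tested. Foxp3, the factor that defines these cells, was at 136, 139 and 149 CPM at 24 h and 33.9, 22.5 and 26.4 CPM at 48 h (log2 -2.36 ± 0.11, adjusted p = 3.62e-11), a fall among the same 12. Ikzf2, the factor Helios, was at 105, 98.1 and 106 CPM at 24 h and 39.5, 40.6 and 40.2 CPM at 48 h (log2 -1.36 ± 0.06), and Lrrc32, the receptor GARP that holds latent TGF-beta, at 41.8, 40.8 and 44.8 CPM at 24 h and 16.6, 13.7 and 15.1 CPM at 48 h (log2 -1.49 ± 0.08). These 3 were lower in every 48 h library. Izumo1r, the folate receptor 4, rose instead, from 155, 166 and 158 to 298, 296 and 282 CPM (log2 0.87 ± 0.05). Il2ra and Ctla4, shared by regulatory and activated cells, did not pass (adjusted p = 0.154 and 0.538). Both passed as higher with upper-quartile and library-total scaling, and Il2ra also without 24 h replicate 3.

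Receptors of activated cells showed no common direction. Of 19 activation and growth cytokine receptors 4 rose and 10 fell, with a median of -0.16 that became 0.03 with library totals. Il12rb2, the inducible chain of the interleukin-12 receptor, was at 33.8, 32.3 and 34.6 CPM at 24 h and 164, 165 and 161 CPM at 48 h (log2 2.28 ± 0.05, adjusted p = 2.58e-27), and Cd44 rose by 0.45 ± 0.05. Of 18 inhibitory receptors and related genes 7 rose and 7 fell. Lag3 was at 187, 199 and 198 CPM at 24 h and 439.6, 403 and 378 CPM at 48 h (log2 1.06 ± 0.05), Havcr2, the receptor TIM-3, at 4.27, 4.49 and 4.3 CPM at 24 h and 12.8, 10.9 and 10.4 CPM at 48 h (log2 1.38 ± 0.11), and Pdcd1, the receptor PD-1, at 82.5, 96 and 85.5 CPM at 24 h and 66.8, 68.6 and 69.2 CPM at 48 h (log2 -0.37 ± 0.06). Lag3 and Havcr2 were thus higher and Pdcd1 lower at 48 h. Vsir, the checkpoint VISTA of resting T cells, was at 354, 362 and 358 CPM at 24 h and 177, 168 and 175 CPM at 48 h (log2 -1.05 ± 0.05). Of 20 co-stimulatory genes 8 rose and 10 fell, with Tnfsf4, the OX40 ligand, up by 1.90 ± 0.12 and Tnfrsf14, the receptor HVEM, changed by -1.27 ± 0.06.

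Of 22 effector transcription factors 14 rose and 7 fell. Bhlhe40, which supports cytokine production, was at 148, 169 and 181 CPM at 24 h and 409.7, 386 and 375 CPM at 48 h (log2 1.23 ± 0.06), Zbtb32, a repressor of activated lymphocytes, at 48.4, 52.1 and 49.6 CPM at 24 h and 153, 155 and 146 CPM at 48 h (log2 1.59 ± 0.05), and Batf3 at 1.51, 2.72 and 1.85 CPM at 24 h and 9.4, 10.3 and 8.97 CPM at 48 h (log2 2.22 ± 0.16). Tbx21, the type 1 factor T-bet, fell from 197, 202 and 213 to 147, 122 and 128 CPM (log2 -0.63 ± 0.06, adjusted p = 1.01e-11), while Ifng rose. STAT and NF-kB pathway genes were balanced, with 8 up and 8 down of 18 and 6 up and 6 down of 16. Jak2 and Stat4, a kinase and a factor of interleukin-12 signalling, each rose by 0.73, while Pim2, a survival kinase gene that STAT5 induces, fell by 0.90.

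In the list of p53 targets and apoptosis genes 15 of 25 members rose and 8 fell (median 0.62), 9 of the rises at least 2-fold. Eda2r, a death receptor, was at 0.338, 0.0545 and 0.256 CPM at 24 h and 2.23, 2.65 and 2.29 CPM at 48 h (log2 3.48 ± 0.32). Trp53 itself was at 193, 193 and 207 CPM at 24 h and 142, 121 and 116 CPM at 48 h (log2 -0.65 ± 0.06), and Bid, a death-promoting BCL2 relative, fell by 0.80. Birc5, listed here as an apoptosis inhibitor, is also a mitotic gene. Of 26 measured genes of ferroptosis and antioxidant defence 15 fell and 6 rose. Gpx4, which detoxifies lipid peroxides, was at 88.8, 86.5 and 74.4 CPM at 24 h and 137, 152 and 158 CPM at 48 h (log2 0.84 ± 0.06) and Aifm2, the parallel suppressor FSP1, at 1.69, 1.23 and 1.93 CPM at 24 h and 6.38, 5.58 and 5.31 CPM at 48 h (log2 1.83 ± 0.16). Srxn1, a target of the oxidant sensor NRF2, was at 17.3, 20.04 and 22.2 CPM at 24 h and 10.4, 8.75 and 10.7 CPM at 48 h (log2 -0.998 ± 0.10). Core clock genes split evenly, 8 up and 8 down of 18. Ciart, a repressor of the clock, was at 7.87, 8.99 and 11.1 CPM at 24 h and 2.1, 1.57 and 2.04 CPM at 48 h (log2 -2.29 ± 0.15), while its fellow repressor Bhlhe41 was at 0.615, 0.654 and 1.17 CPM at 24 h and 3.38, 3.55 and 4.31 CPM at 48 h (log2 2.20 ± 0.23). Arntl, the activator BMAL1, was at 22.9, 21.1 and 22.4 CPM at 24 h and 17, 18.5 and 18.2 CPM at 48 h (log2 -0.30 ± 0.08, adjusted p = 7.29e-04), a fall not called with library totals or with the minimum fold. The times lie 24 h apart, so these data hold no course over a day.

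The largest changes among genes that averaged 5 CPM or more at one time were not confined to these lists. Dthd1, a death domain protein, had 3 counts over the 24 h libraries and 834 over the 48 h libraries, a ratio of 252 with a 95% counting interval from 85.9 to 1224. Dnm1, dynamin-1 of membrane fission, was at 0.0307, 0.0545 and 0.114 CPM at 24 h and 14, 14.8 and 12.7 CPM at 48 h (log2 7.61 ± 0.25). Haao, an enzyme of tryptophan breakdown, was at 0.0922, 0.218 and 0.199 CPM at 24 h and 13, 16.2 and 16.1 CPM at 48 h (log2 6.42 ± 0.23), and Ckmt1, a mitochondrial creatine kinase, at 0.184, 0.30 and 0.313 CPM at 24 h and 12.6, 11.9 and 12.8 CPM at 48 h (log2 5.52 ± 0.19). Their 24 h levels were all under 1 CPM, so the fold rests on few counts at that time. Pif1, a DNA helicase, changed by 5.92 ± 0.19, Cdkn3, a phosphatase of cyclin-dependent kinases, by 5.26 ± 0.27, and Hmmr, a spindle protein, by 5.17 ± 0.10, genes with roles in dividing cells. The list of 12 also held Igf2bp3 (log2 5.04 ± 0.22), Slc4a11 (log2 5.02 ± 0.16) and Neurl1b (log2 5.01 ± 0.26). At the other end, Apol7c, an apolipoprotein L family gene, was at 64.2, 61.9 and 61 CPM at 24 h and 7.47, 4.94 and 6.82 CPM at 48 h (log2 -3.28 ± 0.10, adjusted p = 7.99e-21), and Kdr, the VEGF receptor 2, at 4.3, 5.5 and 6.91 CPM at 24 h and 1.12, 0.412 and 0.655 CPM at 48 h (log2 -2.94 ± 0.27). Trmt61a, a tRNA methyltransferase, was at 51, 57.4 and 57.6 CPM at 24 h and 10.7, 9.08 and 9.7 CPM at 48 h (log2 -2.49 ± 0.07). Eme2, part of a DNA junction endonuclease, and Ube2cbp fell by 2.26 and 2.31 on the log2 scale.

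Markers of other cell types were low, apart from immunoglobulin transcripts and a few genes that T cells also express. The B cell list summed to 922 to 988 CPM at 24 h and 401 to 483 CPM at 48 h, most of it Ighm, the heavy chain of IgM, at 795, 792 and 849 CPM at 24 h and 308, 256 and 341 CPM at 48 h (log2 -1.43 ± 0.15, adjusted p = 1.46e-05), followed by Cd37, a tetraspanin that T cells also express, at 106, 103 and 109 CPM at 24 h and 118, 113 and 103 CPM at 48 h. The B cell gene Ms4a1, which encodes CD20, did not pass, at 1.11, 1.03 and 0.996 CPM at 24 h and 0.681, 0.695 and 1.26 CPM at 48 h. Of 18 tested B cell genes 5 rose, 3 fell and 10 did not pass. Fcmr (log2 3.09 ± 0.31) and Spib (log2 1.68 ± 0.22) were among the rises and Fcer2a (log2 -1.74 ± 0.29) among the falls. Igha, the IgA heavy chain, was at 109, 108 and 111 CPM at 24 h and 32.1, 30.8 and 38.8 CPM at 48 h (log2 -1.69 ± 0.14), and Jchain, which joins antibody units, at 57.4, 59.8 and 58.2 CPM at 24 h and 16.5, 16 and 25.3 CPM at 48 h. Of 11 tested plasma cell genes 5 fell and 1 rose, Sdc1 (log2 2.32 ± 0.13). All immunoglobulin segments and constant regions together took 0.163% ± 0.0059 at 24 h and 0.0657% ± 0.00978 at 48 h of counts. The part of this fall in the other results was not tested. The monocyte and macrophage list summed to 112 to 125 CPM at 24 h and 87.7 to 103 CPM at 48 h, most of it Ctss, which lymphocytes express as well, and Apoe fell from 12.3, 12.1 and 11.4 to 3.73, 3.42 and 3.95 CPM. Of the 9 tested genes of that list 5 fell and 2 rose, Cd68 (log2 0.71 ± 0.11) and Arg1 (log2 0.63 ± 0.25). The neutrophil, mast cell, erythroid, epithelial and neural crest lists each summed to under 25 CPM in all 6 libraries, and Retnlg, Mcpt4, Gp1bb, Sftpc and Cd209a were at 0 in all of them. The dendritic cell list summed to 255 to 331 CPM and 212 to 242 CPM, chiefly from Cd74, the chaperone of class II molecules, the class II genes and Fscn1, an actin bundler, at 64.8, 73.3 and 88.8 CPM at 24 h and 35.6, 26.7 and 28.2 CPM at 48 h. Of the 9 tested dendritic cell genes 5 fell and 3 rose, among the latter Itgax (log2 1.98 ± 0.14) and Batf3 (log2 2.22 ± 0.16). The NK list summed to 1078 to 1133 CPM and 950 to 1071 CPM, nearly all from Il2rb and Eomes, and its defining gene Ncr1 was below 1 CPM. The mesenchymal list summed to 204 to 234 CPM and 286 to 304 CPM, nearly all from a pair of genes that lymphocytes express too. Vim was at 104, 99.5 and 112 CPM at 24 h and 209, 197 and 199 CPM at 48 h (log2 0.94 ± 0.05), and Pecam1, an endothelial marker, at 108, 94.6 and 109 CPM at 24 h and 81, 81.3 and 76.5 CPM at 48 h (log2 -0.38 ± 0.06). The labels do not say what the partner cells are, and low members of these lists went both ways: Col1a1 (log2 2.46 ± 0.30), Pmel (log2 1.92 ± 0.30), Mitf (log2 1.21 ± 0.24) and Muc1 (log2 0.87 ± 0.24) rose, while Cdh1 (log2 -1.62 ± 0.16) and Kdr fell.

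The course with the shFabp7 partner was then set against this one. With the shFabp7 partner 66.1% of tested genes were called, 35.9% higher and 30.2% lower, and 4.34% fell at least 2-fold. Each course was taken from its own libraries, and the difference between the 2 log2 fold changes (shFabp7 minus control) was tested in the same fit. In all, 949 of 16945 genes (5.60%) passed, 750 (4.43%) with a positive and 199 (1.17%) with a negative difference. That number depended on single libraries: leaving out 1 of the 12 gave between 319 calls, without shFabp7 24 h replicate 2, and 1680, without control 48 h replicate 1, and requiring a minimum fold of 1.2 left 13. Of the 949 genes, 831 (87.6%) also changed over time with the control partner, as did 67.7% of all tested genes. Of these 831, 483 fell in the control course and had a positive difference. The control libraries enter both the control course and the difference, so their spread alone favours opposite signs, and this count is no separate result. The balance moved with the scaling too, to 341 positive and 356 negative with upper-quartile factors and 446 and 275 with library totals. In 35 genes the courses were called in opposite directions.

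Ribosome assembly was the list with the most such genes beside glycolysis, 18 of 25 positive and 18 of 28 positive. With the minimum fold of 1.2 only 12 positive differences remained among all genes, so neither count of 18 held there. The assembly genes all fell in the control course, where the shared control libraries favour a positive difference. All 25 assembly genes fell in the shFabp7 course as well, with a median of -1.0 there and -1.33 in the control course. Grwd1 changed by -2.60 ± 0.07 in the control course and -1.97 ± 0.06 in the shFabp7 course (difference 0.63 ± 0.09, adjusted p = 1.36e-04). Among the unfolded protein response genes 12 of 20 were positive, with Calr at -1.10 ± 0.05 and -0.55 ± 0.05. Of the ribosomal protein genes 10 of 30 were negative. The mitosis list had 2 of 32 members with a called difference and a median of 3.66 in the shFabp7 course, and the type I interferon list had none of 29. Among the named genes the largest positive differences were in Selp, the adhesion molecule P-selectin, which changed by 1.40 ± 0.13 in the control and 3.21 ± 0.12 in the shFabp7 course (difference 1.804 ± 0.18, adjusted p = 4.67e-07), Tgfb3, a TGF-beta ligand (difference 1.75 ± 0.51), and Pdgfa, a growth factor chain (difference 1.37 ± 0.32). Tgfb3 and Pdgfa averaged under 1 CPM at 24 h with each partner. At 48 h Tgfb3 was no higher with the shFabp7 partner (mean 7.89 CPM) than with the control partner (mean 8.49 CPM). Slc16a3 rose in both courses, by 2.29 ± 0.08 and 3.31 ± 0.08. The largest negative difference called among the named genes was that of Dnm1, 7.61 ± 0.25 against 5.58 ± 0.22 (difference -2.03 ± 0.60, adjusted p = 0.0378), from under 1 CPM at 24 h with each partner.

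**Figure D5:**
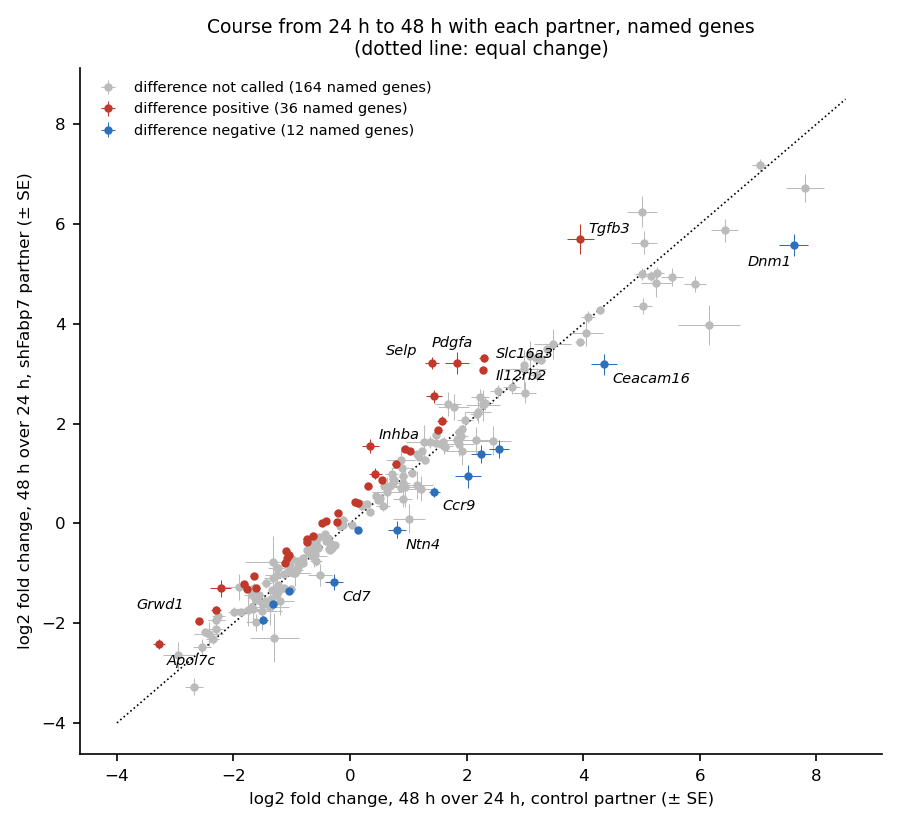
Log2 fold change from 24 h to 48 h with the control partner (x axis) against that with the shFabp7 partner (y axis) for the 212 named genes, coloured by whether the difference was called. There were 36 genes with a positive and 12 with a negative difference, and 164 were not called.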

How the data were processed

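The file the authors deposited holds unnormalized read counts for 53762 gene symbols in 12 libraries. Per the submitters' processing notes, the tools named were HTSeq 0.6.1p1, TopHat2 2.0.13 and CASAVA 1.8.2, with build GRCm39, and the strand mode, annotation release and library type are not given in the sources used here. Counts of antisense or overlapping genes and of near-identical copies can therefore have been mixed or split. Total RNA had been taken with a phenol reagent, per the labels' protocols.

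Genes passing filterByExpr of edgeR (count minimum 10 and total minimum 15, by group) were scaled by TMM and fitted with edgeR 4.0.16 (quasi-likelihood, robust, 1 coefficient per group, all 12 libraries) in R 4.3.3. Adjusted p-values are Benjamini-Hochberg over 16945 genes, and log2 fold changes carry an SE. Shares of a library's raw counts, without TMM, were compared by an exact two-sided permutation test. Floors (3 counts) and 95% intervals of count ratios cover counting error only. The fit was also run on counts simulated from its own estimates with few genes changed, which does not test the scaling.

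The 34 programme lists, 12 marker lists and 36 single genes (900 symbols, 895 of them in the table), and the comparison itself, were chosen with earlier results of these data known. Named were the 36 single genes, the 12 largest changes per direction (mean of at least 5 CPM, no overlap of replicates), up to 2 members per list and direction and the 6 largest differences between partners per direction, 212 genes in all, some of which are not reported here. Other members are named where a count left them as exceptions or where they show a role or a sequence, and were picked after their values were seen. Predicted genes, pseudogenes and receptor or immunoglobulin segments were skipped among the largest changes.

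Alternatives were RLE and upper-quartile scaling, library totals, DESeq2 1.42.0, no filter, a filter of 1 CPM in 3 libraries with 100 counts in total, a minimum fold of 1.2 (glmTreat), the replicate number as a block, the 6 control libraries alone and leaving out each library. Promoters came from RefSeq and were matched by symbol, and no coordinates of the authors' build were used.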

Additional observations from a re-analysis of the deposited data

Results flagged for a closer look

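In 48 of the 212 named genes the change from 24 h to 48 h differed between the partners by edgeR's test of the difference itself. Each value is the log2 fold change with the shFabp7 partner minus that with the control partner, positive in 36 genes and negative in 12.

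Among genes that rose with the control partner the rise was larger with the shFabp7 partner for the secreted or surface mediators Selp (1.804), Tgfb3 (1.75), Pdgfa (1.37), Inhba (1.21), Ccl9 (0.56) and Il13 (0.45), for Il12rb2 (0.79), Prf1 (0.40) and Thy1 (0.31), and for the metabolic genes Slc16a3 (1.02), Hk2 (0.42) and Acadl (0.35). Asph (1.11), Vim (0.56), Ier3 (0.48) and Edem1 (0.27) were also in this class. Selp was at 3.68 CPM at 24 h and 34.1 CPM at 48 h with the shFabp7 partner, as means of 3 libraries, and the rise of Inhba in the control course was lost under 8 alternatives. The difference of Tgfb3 lay in its 24 h means, 0.546 CPM with the control and 0.146 CPM with the shFabp7 partner. Its 48 h means were 8.49 and 7.89 CPM. Pdgfa averaged 0.957 and 0.628 CPM at 24 h, so both folds rest on few counts.

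Genes that fell with the control partner and had a positive difference included ribosome assembly factors, Grwd1 (0.63), Utp20 (0.60), Ccdc86 (0.56) and Polr1b (0.46), and chaperones, Hsph1 (0.60), Calr (0.55) and Hspa5 (0.39). Glycolysis genes of this kind were Pfkl (0.49), Car12 (0.42) and Slc2a1 (0.41). Immune genes included Irf4 (0.41), Socs1 (0.31), Irgm1 (0.30) and Ighg2b (0.92). Others were Apol7c (0.87), Acsl5 (0.25), mt-Nd1 (0.38) and mt-Nd2 (0.36). Il2ra, which did not pass in the control course, had a difference of 0.34.

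Negative differences were found in genes that rose with the control partner, Dnm1 (-2.03), Ceacam16 (-1.18), Hspa1a (-1.08), Neil2 (-1.06), Ntn4 (-0.94), Dapk2 (-0.85), Ccr9 (-0.81) and Rps19 (-0.27), in genes that fell, Lrrc32 (-0.45), Vsir (-0.32) and Cd69 (-0.30), and in Cd7 (-0.90), which did not pass in the control course. Of the 48 calls, 9 held under every alternative: Apol7c, Asph, Ccr9, Grwd1, Hsph1, Il12rb2, Inhba, Selp and Slc16a3.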

How the results depend on the processing

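No gene called for the control course changed sign while called under any alternative, and 74.0% of the calls (4820 up, 3673 down with the minimum fold of 1.2) to 98.9% were kept. Of 3180 values of named genes 3104 kept their direction and side of the threshold, 60 lost and 12 gained a call, and 4 changed sign: Ccr7 (0.017), Fabp5 (0.066) and Mcm5 (0.068) with library totals, and Fabp5 without 24 h replicate 2 (its range with a library left out was -0.22 to 0.047). Over 690 list medians 24 changed sign, in 10 lists, and that of the activation receptors was 0.034 with library totals. The difference between partners was less stable. Its 949 calls became 13 with the minimum fold and 319 (without shFabp7 24 h replicate 2) to 1680 (without control 48 h replicate 1) with a library left out, its 750 positive calls 341 (upper quartile), 446 (library totals), 483 (no filter), 12 (minimum fold) and 183 to 1332, and its 199 negative calls 356 (upper quartile), 341 (no filter), 1 (minimum fold) and 93 to 348. The cause was not tested. Each library but control 24 h replicate 1 moved the 949 by over 1.5 times, beside these 513 and 589 without control 24 h replicates 2 and 3, 588 and 564 without control 48 h replicates 2 and 3, 628 and 342 without shFabp7 24 h replicates 1 and 3, and 589, 569 and 569 without the shFabp7 48 h replicates in turn. Of 959 values of named genes for this difference 224 lost their call. The labels do not say whether the replicate numbers pair the samples. No sign of it was seen, which 3 libraries per group cannot exclude. Deviations of same-numbered libraries correlated at -0.019 to -0.0045 and those of other pairs at -0.025 to 0.040. With the replicate number as a block 6010 genes rose and 5378 fell over time and 862 differed between partners. DESeq2 gave 5776 up and 5507 down. Depth limits genes with a few counts at 24 h, and folds from 3 counts or fewer over that group are given as bounds or with counting intervals.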

Other observations

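Genes of autophagy and the lysosome, a recycling system that T cells use as they change metabolism, rose in 12 of 23 cases and fell in 8, beside 35.8% and 32.0% of all tested genes. Wipi1, which marks forming autophagosomes, was at 1.26, 0.735 and 1.05 CPM at 24 h and 7.22, 10.03 and 6.93 CPM at 48 h (log2 2.99 ± 0.20, adjusted p = 5.1e-15 by edgeR), and Gabarapl1, of the LC3 family, at 16.4, 17.2 and 17.5 CPM at 24 h and 38.8, 38.2 and 38.6 CPM at 48 h (log2 1.18 ± 0.07). The conjugation genes Atg7 and Atg5 fell by 0.62 and 0.58. Lysosomal proteases rose, with Ctsb at 157, 160.5 and 159 CPM at 24 h and 249.8, 271 and 258 CPM at 48 h (log2 0.71 ± 0.05) and Ctsd at 90.02, 91 and 86.1 CPM at 24 h and 136, 136 and 148 CPM at 48 h (log2 0.65 ± 0.05).

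Long non-coding RNAs rose more often than they fell: of 957 tested genes of this class in the reference, 49.0% rose and 9.93% fell, against 38.6% and 36.5% of 13084 protein-coding genes and 11.1% and 15.2% of 585 pseudogenes. Of 3995 genes of any class with a mean under 1 CPM, 34.7% rose and 6.96% fell, and the part of the level in the result for the class was not tested. Protein-coding genes with a matched transcript were also ranked by the GC content of their longest transcript. The upper 20% rose in 45.4% and fell in 33.6% of cases, the lower 20% in 33.0% and 36.4%. The part of the level in this was not tested either.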
